A study of Mus musculus with 6 samples.

Results

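The spindle assembly checkpoint and the Ndc80 complex were described through 10 mouse genes of 18193 that the platform annotation names one at a time. The members were Mad2l1, Mad1l1, Bub1, Bub1b, Bub3 and Ttk of the checkpoint, and Ndc80, Nuf2, Spc24 and Spc25, which encode the subunits of the Ndc80 complex. They were taken by symbol: every probe set, the group of oligonucleotides that reads one transcript on the array, whose annotation holds a single symbol among the 10. This gave 20 probe sets on 7 autosomes and none on the X or Y chromosome. In assembly GRCm38.p6, Bub1, Bub1b and Spc25 lie on chromosome 2, Ttk and Spc24 on 9, Mad2l1 on 6, Mad1l1 on 5, Bub3 on 7, Ndc80 on 17 and Nuf2 on 1. The labelled cell type was checked against its markers: 13 of 13 listed oocyte genes, among them Gdf9, Zp3 and Nlrp5, lay at or above the median signal of every array.

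The samples were fully grown oocytes whose nucleus, the germinal vesicle (GV), is still intact, so that they rest in prophase of meiosis I. The 3 XY arrays came from females of the strain B6.Y(TIR), which carry a Y chromosome and develop ovaries, and the 3 XX arrays from their XX littermates. Females of both groups were 25 to 29 days old, had received 5 IU of equine chorionic gonadotropin 45 to 47 hours earlier, and gave 10 oocytes each, stripped of cumulus cells. An array therefore pools the oocytes of 1 female, and less RNA in every oocyte cannot be told apart from a few poor oocytes in the pool. The p-values measure the spread between arrays, in which differences between females cannot be told apart from those of RNA quality, labelling and array.

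At each division, Ttk (also called Mps1) starts checkpoint signalling at kinetochores that have no microtubule attached. Bub1 and Bub3 are recruited there, Mad1l1 brings Mad2l1 into its active fold, and Mad2l1, Bub1b (BubR1) and Bub3 together hold back the anaphase-promoting complex. The Ndc80 complex is a long rod of 4 proteins: Ndc80 and Nuf2 bind the microtubule at one end, and Spc24 and Spc25 anchor the other end at the kinetochore. A GV oocyte has not yet begun its meiotic divisions, and much of its mRNA is stored for them.

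Many genes of cell division carry 2 short promoter elements, the cell cycle homology region (CHR, letters TTTGAA) and the CCAAT box (letters CCAAT). Both were searched on both strands in RefSeq promoter windows of build GRCm38.p6. They run from 250 bases before to 50 after the annotated start given with each window. In Ttk, Bub3 and Bub1b that start lies inside the annotated gene, which begins at bases 83834651, 131560367 and 118598202. The table held 9 of the 10 members, without Spc24. A CHR match lay in the windows of 5 of the 9 (Bub1b, Bub3, Ttk, Ndc80 and Spc25), against 20.2% of 27025 genes. The sites below show it in capitals with its surroundings on the gene's strand, so that its place and orientation can be compared between the members.
Bub3 (chr7:131560315-131560344, plus strand): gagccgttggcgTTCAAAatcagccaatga
Ttk (chr9:83834684-83834713, plus strand): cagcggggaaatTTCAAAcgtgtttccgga
Bub1b (chr2:118598231-118598260, plus strand): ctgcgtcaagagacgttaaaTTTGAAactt
Ndc80 (chr17:71526811-71526840, minus strand): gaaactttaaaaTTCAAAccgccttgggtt
Spc25 (chr2:69206172-69206201, minus strand): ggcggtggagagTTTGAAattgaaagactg

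In Bub3 the CHR began at base -43, before the start, whereas in Ttk, Spc25, Ndc80 and Bub1b it began at bases 8, 25, 30 and 41 of the transcribed side. Bub3 has a second annotated start, from which the same CHR began at base -167. Its first start is used here. A CCAAT box lay in 5 of the 9 windows (Bub1, Bub1b, Bub3, Ttk and Spc25), against 41.1% of genes, and 4 of the 9 held a pair of boxes, against 13.3% of genes. The boxes of a pair began 26 bases apart in Bub1, 42 in Bub3, 37 in Ttk and 32 in Spc25. The 100 bases before the window's annotated start follow for these 4 genes, with the boxes in capitals. In Ttk the box nearer that start lies inside the annotated gene, which begins at base 83834651. They are shown so that the spacing and orientation of the boxes can be compared. The CHR of Bub3 lies between its boxes and does not overlap them.
Bub1 (chr2:127831860-127831959, minus strand): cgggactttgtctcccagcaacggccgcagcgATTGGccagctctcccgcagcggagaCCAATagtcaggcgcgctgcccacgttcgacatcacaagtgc
Bub3 (chr7:131560270-131560369, plus strand): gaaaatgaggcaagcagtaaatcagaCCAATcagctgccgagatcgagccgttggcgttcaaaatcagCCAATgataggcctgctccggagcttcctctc
Ttk (chr9:83834589-83834688, plus strand): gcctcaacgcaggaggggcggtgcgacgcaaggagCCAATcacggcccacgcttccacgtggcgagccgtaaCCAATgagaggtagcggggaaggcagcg
Spc25 (chr2:69206214-69206313, minus strand): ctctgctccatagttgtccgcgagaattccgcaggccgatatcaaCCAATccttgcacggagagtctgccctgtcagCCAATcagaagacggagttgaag

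**Figure D1:**
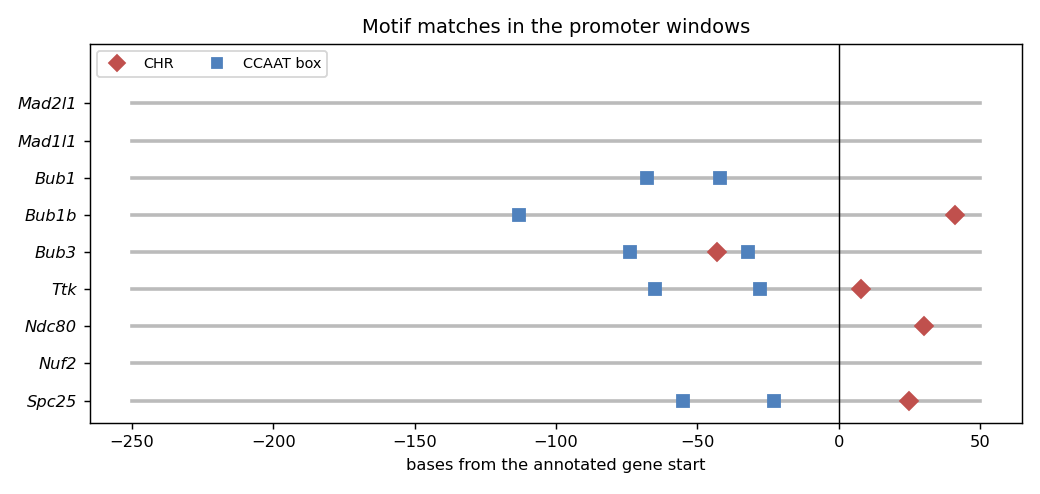
Matches of the CHR (diamonds) and the CCAAT box (squares) in the promoter windows of 9 members. The horizontal axis gives the first base of the match, from 250 bases before to 50 after the annotated start given with each window. Ttk, Spc25, Ndc80 and Bub1b have their CHR after the start, Bub3 before it, and Mad2l1, Mad1l1 and Nuf2 have no match of either motif. Bub3 is drawn from the first of its annotated starts.

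The arrays differed in ways that touch all members. The deposited intensities, on a linear scale, had medians of 29.2 to 31.4 on the XY arrays and 24.5 to 28.8 on the XX arrays, so levels below are log2(quantile-normalized intensity + 9), and a difference is XY minus XX on that scale. Over all genes, XX 1 was about as close to XY 1 (r = 0.962) as to the other XX arrays (both 0.967). The 5′ control of Actb, which reads the far end of the transcript from the labelling primer, had intensities of 55.7, 62.7 and 54.7 on XY 1, XY 2 and XY 3, against 45.9, 184 and 188 on XX 1, XX 2 and XX 3. XX 1 thus stood with the XY arrays in this control. Summed over their lists in normalized intensity, oocyte markers had 79384 to 82868 on XY and 89381 to 95909 on XX arrays, granulosa and cumulus markers 1481 to 1695 and 1320 to 1653, theca and stroma markers 382 to 560 and 212 to 235, and blood and immune markers 155 to 171 and 108 to 162. The stroma list lay higher on every XY array, and its members Cyp17a1, Col1a1, Lum and Pdgfra were too dim to be kept. The 4 kept ones all had differences above 0 (Dcn 1.85, Acta2 1.10, Star 0.76 and Col1a2 0.08), with 0 past an adjusted p of 0.05 by limma. Past it were 1 of 10 granulosa and cumulus genes (Inha, higher in XY) and 1 of 2 blood and immune genes (Cd68, higher). Of the 13 oocyte genes 2 were lower (Bmp15 and Mos), and 13.2% of all genes passed. The part of any of these array differences in the results was not tested.

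Probe sets were tested where 3 or more of the 6 arrays reached the array median. Of the 20 member probe sets, 15 were kept, and every member had at least 1. The 5 left out, 3 of Bub3 and 1 each of Mad1l1 and Ttk, lay below the median on all 6 arrays. The brightest kept probe set stood for its gene. By that measure 9 of the 10 genes, all but Mad1l1, were among the 4148 brightest of the 12442 genes tested.

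No gene of the checkpoint or of the Ndc80 complex was called different between XY and XX oocytes. By limma, 0 of the 10 genes passed an adjusted p of 0.05 in either direction, where 13.2% of all 12442 genes and 12.1% of the 4148 brightest did. A count of 0 among 10 genes is close to those shares. At an unadjusted p under 0.05 there were 2, Spc25 and Bub3, against 4003 of all 12442 genes. The median difference of the 10 genes was 0.10, with 6 above 0 and 4 below, and that of all genes was 0.07. The 95% confidence interval of the difference, not adjusted for the number of genes, stayed within 2-fold in both directions for 9 of the 10 genes, as it did for 61.8% of all genes and 77.3% of the 4148 brightest. The exception was Mad1l1, at -1.71 to 0.48 in log2. Smaller differences lie within every one of these intervals.

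**Figure D2:**
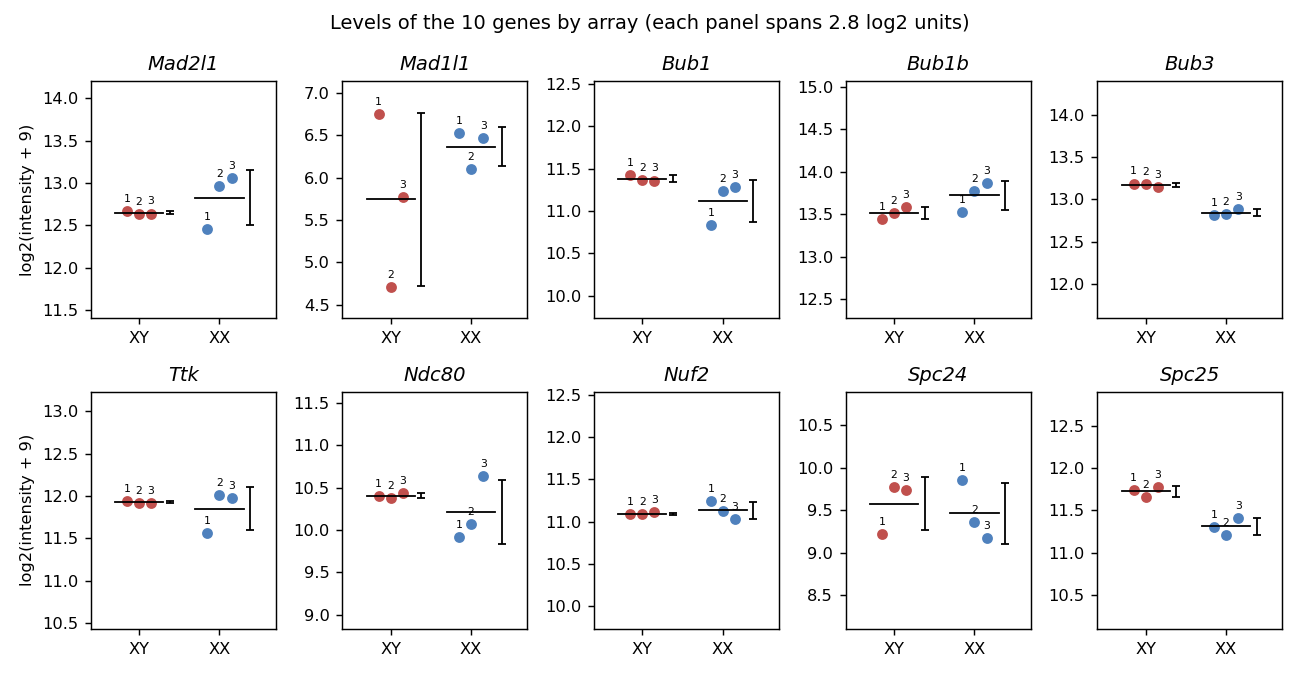
Log2(quantile-normalized intensity + 9) of each of the 10 genes on the 3 XY (red) and 3 XX (blue) arrays; small numbers are the replicates, horizontal lines the means, and vertical bars the SD. The XY arrays of 9 genes lie closer together than the XX arrays, and Mad1l1 has its wide spread in XY.

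The kinase Ttk had levels of 11.94, 11.92 and 11.91 on the XY arrays, against 11.56, 12.01 and 11.97 on the XX arrays. The XY values lay inside the XX range, below XX 2 and XX 3 and above XX 1. Its difference was 0.07 ± 0.17 (SE), with a 95% interval from -0.32 to 0.47 (limma, adjusted p = 0.789). Bub1, the kinase that builds the checkpoint platform on kinetochores, had levels of 11.43, 11.36 and 11.36 on the XY arrays, against 10.84, 11.24 and 11.28 on the XX arrays. The groups did not overlap, by a narrow gap to XX 3. The difference of 0.26 ± 0.17 did not pass (limma, adjusted p = 0.318), and was 0.12 without XX 1. A second, dimmer probe set of Bub1 had -0.05 ± 0.35 (adjusted p = 0.940 over the kept probe sets), with XX 1 again the lowest array.

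Bub3, the WD-repeat protein that carries Bub1 and Bub1b to the kinetochore, had levels of 13.19, 13.18 and 13.15 on the XY arrays, against 12.81, 12.82 and 12.89 on the XX arrays. Both groups were tight and did not overlap. The difference of 0.33 ± 0.13, or 1.26-fold with an interval from 0.02 to 0.64 in log2, did not pass (limma, adjusted p = 0.136). The second kept probe set of Bub3 had levels of 10.09, 9.94 and 9.69 on the XY arrays, against 9.02, 9.56 and 9.06 on the XX arrays. It pointed the same way, with 0.69 ± 0.21 (adjusted p = 0.0783 over the kept probe sets). On the deposited scale the main probe set of Bub3 had intensities of 9867, 7316 and 7905 on the XY arrays, against 6706, 8111 and 9077 on the XX arrays. Those values overlap; the groups were apart after quantile normalization and trimmed mean scaling. With median scaling the difference of Bub3 was -0.094.

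Mad2l1, the inhibitor of Cdc20 that the checkpoint activates, had levels of 12.67, 12.64 and 12.64 on the XY arrays, against 12.46, 12.97 and 13.06 on the XX arrays. The XY arrays lay between XX 1 and the other XX arrays. The difference was -0.18 ± 0.19 (limma, adjusted p = 0.553), and leaving out 1 XX array moved it both ways. It was -0.36 without XX 1, where the groups did not overlap (adjusted p = 0.0750), -0.10 without XX 2 and -0.065 without XX 3. Its partner Mad1l1, which holds Mad2l1 at the kinetochore, was the dimmest member, with levels of 6.76, 4.71 and 5.78 on the XY arrays, against 6.53, 6.10 and 6.46 on the XX arrays. XY 1 was the highest array and XY 2 the lowest, and the difference of -0.62 ± 0.47 had the widest interval of the 10, from -1.71 to 0.48 (adjusted p = 0.398). It was -1.11 without XY 1, where the groups did not overlap (adjusted p = 0.101), and -0.10 without XY 2 (adjusted p = 0.869). With an array left out, the share of all genes without overlap was not counted. Mad1l1 reached the array's median on 5 of 6 arrays, and its deposited intensities were 108, 19.0 and 45.4 on the XY arrays, against 69.0, 61.8 and 90.2 on the XX arrays.

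Bub1b was read by 3 kept probe sets, and their sizes differed. The brightest had levels of 13.45, 13.52 and 13.58 on the XY arrays, against 13.53, 13.78 and 13.86 on the XX arrays. XX 1 lay within the XY range, and the difference was -0.21 ± 0.15 (limma, adjusted p = 0.384). The next one, 1416961_at, had -0.31 ± 0.17 (adjusted p = 0.258 over the kept probe sets). The dimmest, 1447362_at, had levels of 6.70, 7.05 and 6.59 on the XY arrays, against 7.31, 8.06 and 8.03 on the XX arrays. It was lower in XY by a difference of -1.02 ± 0.25 (adjusted p = 0.0463 over the kept probe sets), and was the 1 of 15 member probe sets that passed, against 10.5% of all 22997 kept probe sets.

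The deposited intensities of 1447362_at were 104, 107 and 81.9 on the XY arrays, against 122, 298 and 335 on the XX arrays. XX 1 stood near the XY arrays and far from XX 2 and XX 3, which were also the 2 arrays with a high 5′ control of Actb. This was not particular to 1447362_at. In deposited intensity XX 2 and XX 3 were also the 2 highest arrays for Mad2l1, Ttk, Nuf2, Spc24, the other Bub1b probe sets and the dimmer Bub1 probe set. They were not for Mad1l1, for the brightest probe sets of Bub1, Bub3, Ndc80 and Spc25, or for the second kept ones of Bub3 and Spc25. Their trimmed means over all probe sets were the highest too, at 289 and 332 against 193 to 262. The difference of 1447362_at was -0.51 with the log2 ratio of the 3′ to the 5′ Actb control as a covariate (adjusted p = 0.25). In that fit 0.0739% of all kept probe sets passed. Without any one array other than XX 1 the adjusted p lay between 0.0792 and 0.135, in fits where 2.35% to 4.26% of all kept probe sets passed. Without XX 1 it was 0.0117, where 23.1% passed. The part of RNA length in this probe set beyond that covariate was not tested.

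**Figure D3:**
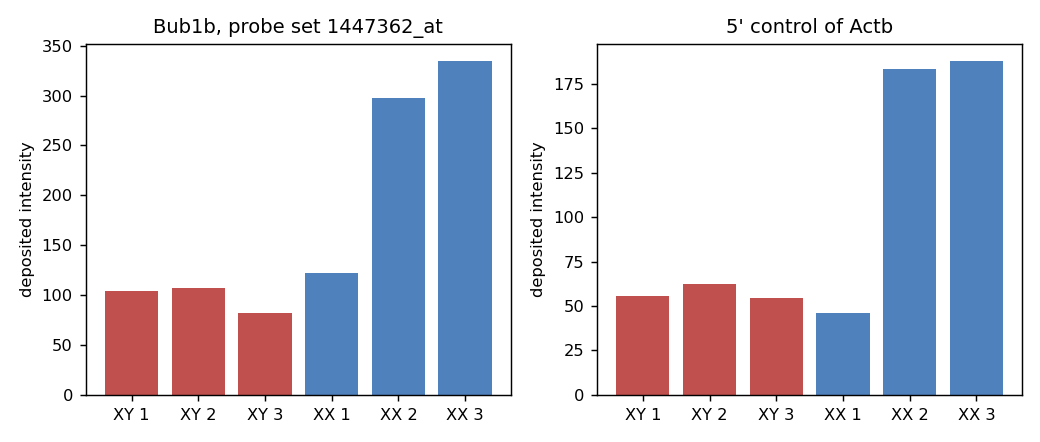
Deposited intensity (linear scale, from 0) of the Bub1b probe set 1447362_at on the left and of the 5′ control of Actb on the right, 1 bar per array, XY in red and XX in blue. XX 2 and XX 3, at 298 and 335 for Bub1b and at 184 and 188 for Actb, stand above the other 4 arrays in both panels.

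In the Ndc80 complex, the microtubule-binding subunit Ndc80 had levels of 10.41, 10.38 and 10.43 on the XY arrays, against 9.92, 10.07 and 10.63 on the XX arrays. The XX arrays spanned the XY values on both sides, and the difference was 0.20 ± 0.21 (limma, adjusted p = 0.549). It was 0.054 without XX 1, 0.13 without XX 2 and 0.40 without XX 3, where the groups did not overlap (adjusted p = 0.164). The share of all genes without overlap was not counted in that fit. Nuf2, the partner of Ndc80, had levels of 11.09, 11.09 and 11.11 on the XY arrays, against 11.24, 11.12 and 11.03 on the XX arrays. This was the smallest difference of the 10 genes in size, -0.04 ± 0.14, with an interval from -0.36 to 0.29 (adjusted p = 0.871). On the deposited scale Nuf2 had 2274, 1625 and 1742 on the XY arrays, against 2042, 2665 and 2858 on the XX arrays, and its difference was -0.42 (adjusted p = 0.381).

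The kinetochore-anchoring subunit Spc25 had levels of 11.74, 11.65 and 11.78 on the XY arrays, against 11.30, 11.21 and 11.41 on the XX arrays. The groups did not overlap, and the difference of 0.42 ± 0.14, or 1.33-fold, was the largest positive one of the 10 genes. It did not pass (limma, adjusted p = 0.0904). It passed with a filter at the 70th percentile (adjusted p = 0.0486), with a trended and robust variance (0.0303) and with array weights (0.0493), settings in which 25.8%, 19.4% and 26.2% of all genes passed. Its size shrank to 0.04 in the deposited values and turned to -0.12 under median scaling. The second probe set of Spc25, which reached the array's median on XY 2, XY 3 and XX 2, had 0.33 ± 0.28 (adjusted p = 0.463 over the kept probe sets).

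Spc24, the partner of Spc25, had levels of 9.22, 9.77 and 9.74 on the XY arrays, against 9.86, 9.36 and 9.17 on the XX arrays. Arrays of both groups interleaved, and the difference was 0.12 ± 0.24 (limma, adjusted p = 0.770). The deposited intensities went the other way: 623, 660.1 and 691 on the XY arrays, against 749, 758 and 773 on the XX arrays, without overlap and with a difference of -0.21 (adjusted p = 0.665). The partners Spc24 and Spc25 thus kept one sign under quantile normalization and had differences of opposite sign in the deposited values, none of them past the test.

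**Figure D4:**
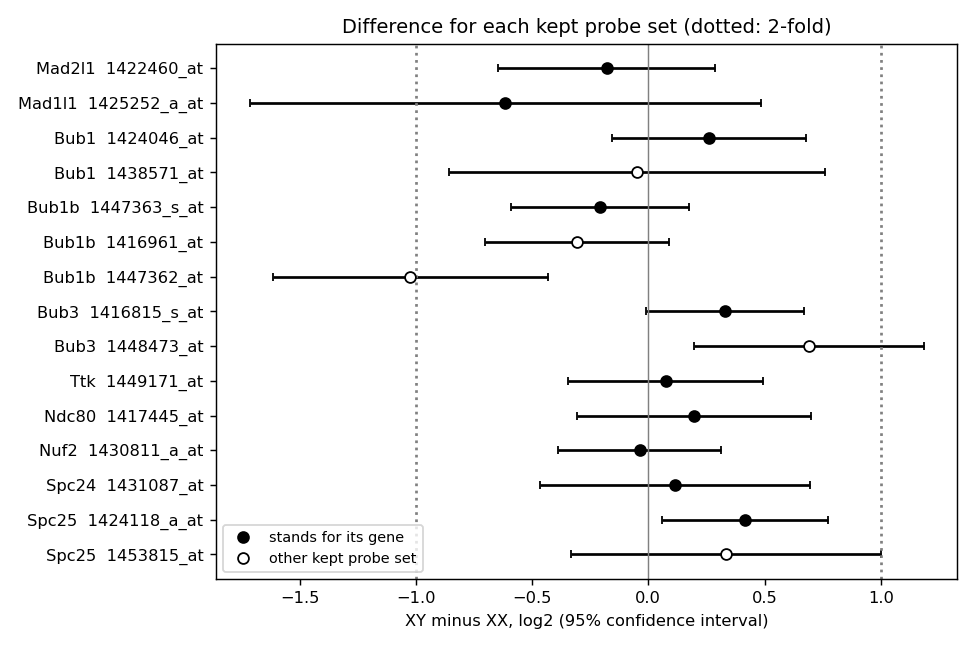
XY minus XX in log2 for the 15 kept probe sets, with 95% confidence intervals from the fit over all 22997 kept probe sets; filled points stand for their gene, open points are further probe sets, and dotted lines mark a 2-fold difference. Bub1b 1447362_at, at -1.02, is the probe set that passed, and Mad1l1 has the widest interval.

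Of the 10 members, 3 had XY and XX arrays that did not overlap (Bub1, Bub3 and Spc25, all with XY above XX), where 38.8% of all genes did not overlap. With the deposited values the member apart was Spc24, with XY below XX, and with median scaling Bub1b, Nuf2 and Spc24, also with XY below XX. The 38.8% holds for quantile normalization. For the other scalings the share of all genes without overlap was not counted, so these members cannot be set against it. The XX arrays spread more than the XY arrays in 9 of 10 members, all but Mad1l1, as in 80.8% of the 4148 brightest genes. The median SD over the members was 0.03 in XY and 0.24 in XX, against 0.10 and 0.22 for those genes. XX 1 was the lowest array of the 6 for Mad2l1, Bub1, Bub3, Ttk and Ndc80. Without XX 1, Mad2l1, Bub1b and Ttk also did not overlap, with XY below XX, besides Bub1, Bub3 and Spc25. Without XX 3, Ndc80 (XY above) and Nuf2 (XY below) joined those 3, and without XY 3 Bub1b did (XY below). The share of all genes without overlap was not counted in those fits.

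How the arrays were brought to one level moved the members together. Their median difference was 0.10 with quantile normalization, 0.07 with trimmed mean scaling, -0.24 in the deposited values and -0.41 under median scaling. The median of the 4148 brightest genes followed it, at 0.05, 0.02, -0.29 and -0.45, and that of all genes was 0.07, 0.18, -0.12 and -0.27. Of the 10 members, 6 lay above the median of all genes with quantile normalization, and 3 (Bub1, Bub3 and Spc25) with each of the other scalings. Against the median of the 4148 brightest genes, the same 6 lay above with all 4 scalings: Bub1, Bub3, Ttk, Ndc80, Spc24 and Spc25. All members but Mad1l1 are among those brightest genes. None of the members passed limma's test with any of the 4 scalings. Of all genes, 13.2% passed with quantile normalization, 16.1% with trimmed mean scaling, 8.05% in the deposited values and 16.9% under median scaling. At an unadjusted p under 0.05 there were 2 members with trimmed mean scaling (Bub3 and Spc25) and 0 in the deposited values. Under median scaling there were 3 (Mad2l1, Bub1b and Nuf2, all below 0). The share of all genes at that unadjusted p was not counted for these 3 scalings.

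**Figure D5:**
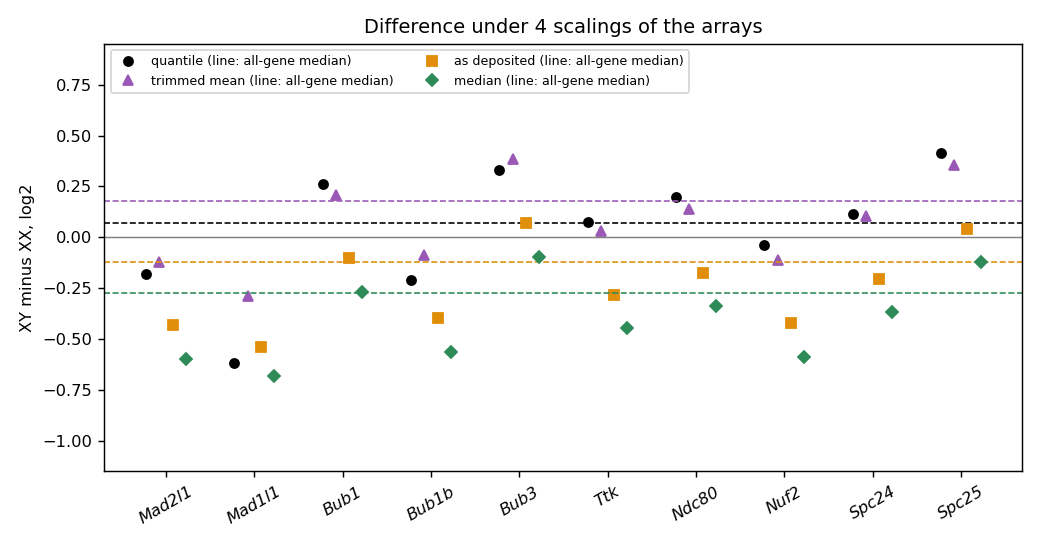
XY minus XX in log2 for each of the 10 genes under 4 ways of scaling the arrays; dashed lines give the median over all 12442 genes in the same colour. Bub1, Bub3 and Spc25 lie above that median under all 4 scalings, and Mad2l1, Mad1l1, Bub1b and Nuf2 lie below it. The median of the 4148 brightest genes, which hold 9 of the 10, is not drawn.

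The other genes of the pathway were read from lists of the outer kinetochore, checkpoint partners, inner kinetochore and anaphase targets. In the rest of the outer kinetochore, 0 of 18 genes passed limma's test, where 13.2% of all 12442 genes did. At an unadjusted p under 0.05 there were 9 (4003 of all 12442 genes), and the median difference was 0.23. Closest were the microtubule plus-end protein Clasp2 (-0.68 ± 0.19, adjusted p = 0.0535) and Pmf1, a subunit of the Mis12 complex to which Spc24 and Spc25 dock (0.92 ± 0.28, adjusted p = 0.0686). A second kept probe set of Clasp2 had -0.23 ± 0.36 (adjusted p = 0.694 over the kept probe sets), and the mean of both -0.46 (adjusted p = 0.225). Checkpoint partners and silencing factors had a median of -0.003. Of their 15 genes, 1 was lower in XY and none higher, where 13.2% of all genes passed in either direction. That gene was Haspin, the histone kinase that helps to place the Aurora kinases at centromeres, with levels of 11.02, 10.68 and 11.01 on the XY arrays, against 11.69, 11.75 and 11.75 on the XX arrays. All XY arrays lay below all XX arrays, and Haspin fell by 0.83 ± 0.16 (limma, adjusted p = 0.0185).

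The inner kinetochore had a median of 0.15. Of its 18 genes, 1 was lower in XY and none higher, where 13.2% of all genes passed in either direction. The lower one was the X-linked gene Cenpi, a subunit of the constitutive centromere network. Its levels were 7.15, 6.92 and 6.47 on the XY arrays, against 7.59, 8.35 and 8.09 on the XX arrays. Cenpi fell by 1.16 ± 0.26 (limma, adjusted p = 0.0304). Of the 9 anaphase targets listed, Ccnb1 and Rec8 were not tested, so nothing is said of them. Of the 7 tested 0 passed, where 13.2% of all genes did, and the median was 0.11. At an unadjusted p under 0.05 there was 1, against 4003 of all 12442 genes. Closest were the cyclin gene Ccna2 (0.54 ± 0.15, adjusted p = 0.0564) and the cohesin gene Rad21 (-0.61 ± 0.29, adjusted p = 0.194). Further kept probe sets had 0.33 for Ccna2 and 0.007 and -0.83 for Rad21, none past the test. In the fit with the Actb ratio as a covariate, in which 1.90% of all genes passed, Haspin had -0.86 ± 0.21 (adjusted p = 0.0895) and Cenpi -0.81 ± 0.32 (adjusted p = 0.215). That ratio differed between the groups, so this fit cannot fully separate it from XY against XX. With no filter on dim probe sets Cenpi kept its difference and did not pass (adjusted p = 0.0603). Without any one array other than XX 1 the adjusted p lay between 0.0508 and 0.0705 for Haspin and between 0.0508 and 0.0917 for Cenpi. In those fits 3.92% to 5.47% of all genes passed. Without XX 1 it was 0.0159 for Haspin and 0.0129 for Cenpi, where 27.4% of all genes passed.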

How the data were processed

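RNA of 10 oocytes per array was labelled in 2 cycles with oligo(dT) primers and hybridised to Affymetrix 3′ arrays, per the labels' protocols. The deposited values are 1 intensity per probe set on a linear scale; MAS5 is the tool that the submitters' processing notes name, and no version, scaling target or detection call came with it. Besides 64 control probe sets there were 45037, of which 34945 carried 1 symbol, 932 several and 9160 none listed. Symbols were updated by gene ID for 34741.

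Values were quantile-normalized with limma 3.58.1 in R 4.3.3, 9 (their 25th percentile) was added and log2 taken, which understates changes of dim genes and hides any change in total mRNA. The deposited values and other scalings, pseudocounts, filters, variance models, array weights, covariates and arrays left out were alternatives. The fit used lmFit, eBayes and Benjamini-Hochberg adjustment over 12442 genes or 22997 kept probe sets. It was tested on simulated data. Precision is limited by the 3 arrays of each group. Members and lists were chosen with earlier results of these data known. Named beyond the members were the genes of each list past the adjusted p, or the 2 with the smallest p.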

Additional observations from a re-analysis of the deposited data

How the results depend on the processing

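Over 18 alternatives, 0 of the 10 member genes passed in 15. With a filter at the 70th percentile 1 of 9 tested passed (Spc25; 25.8% of all genes), with a trended and robust variance 2 (Bub3 and Spc25; 19.4%) and with array weights 1 (Spc25; 26.2%). The count of 1 member probe set, Bub1b 1447362_at, became 0 with the deposited values, trimmed mean scaling, no pseudocount, no filter, the Actb ratio as a covariate or the replicate block. It became 2 with a pseudocount of 50 (16.6% of all kept probe sets) or the 70th percentile filter (24.2%) and 4 with a trended and robust variance (16.7%), and ran from 0 to 1 when each array was left out in turn. The 1643 genes changed became 1001 with the deposited values, 913 with no filter, 3264 with array weights, 236 with the Actb ratio as a covariate and 679 with the replicate block, in which neither Haspin (adjusted p = 0.0608) nor Cenpi (0.0699) passed. The block pairs XY and XX arrays of the same number, whose deviations from the group means correlated at -0.10, 0.001 and -0.04. Arrays of different number had -0.058 to 0.10. Deviations from a mean of 3 arrays are tied to each other, so these values cannot tell whether arrays of the same number share more than that number. Leaving out 1 array gave 472 to 3307, the highest without XX 1. Of the genes changed, 59.5% were higher in XY with quantile normalization, 47.2% with the deposited values, 22.9% with median scaling and 70.8% with trimmed mean scaling.

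Directions that turned, none past the test on either side, were mostly those of scaling. With the deposited values they were Bub1 (-0.10), Ttk (-0.28), Ndc80 (-0.18) and Spc24 (-0.21). With median scaling they were Bub1 (-0.27), Bub3 (-0.094), Ttk (-0.45), Ndc80 (-0.34), Spc24 (-0.37), Spc25 (-0.12) and Ccna2 (-0.0056). With trimmed mean scaling the Bub1 probe set 1438571_at had 0.072, with array weights Ttk had -0.021, and with the Actb covariate Mad2l1 had 0.15, Spc24 -0.13, Rad21 0.0084 and 1438571_at 0.70. Leaving out each array in turn, Ttk ran from -0.068 to 0.16, Nuf2 from -0.089 to 0.017, Spc24 from -0.033 to 0.31 and 1438571_at from -0.44 to 0.18. The causes were not tested.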
